A study of Mus musculus with 4 samples.

Results

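The mRNAs of 10 AP-1 transcription factor genes were read in the cytosol of mouse macrophages shortly after an inflammatory stimulus. The genes are Fos, Fosb, Fosl1 and Fosl2 of the Fos family, Jun, Junb and Jund of the Jun family, Batf and Batf3 of the Batf family, and Atf3. They were chosen by symbol, not by any measured value, though earlier results of these data were known. All 10 were matched among 55536 annotated genes. The single group consisted of primary bone marrow-derived macrophages of C57BL/6J mice exposed to lipid A at 100 ng/ml for 15 min. RNA of the cytosolic fraction was depleted of ribosomal RNA before total RNA-seq, and 4 biological replicates were labelled. No unstimulated and no nuclear libraries were analysed here, so every value is a level after the stimulus and none is an induction. The labels give one donor record for all 4 replicates and do not say whether animals or cultures were separate. A p-value here therefore measures only how these samples scatter, and that scatter may be technical.

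AP-1 is a family of dimers of basic leucine zipper (bZIP) proteins, in which a Jun protein pairs with itself or with a Fos, Batf or Atf protein, while Fos proteins depend on a partner to bind DNA. Lipid A, the part of bacterial lipopolysaccharide that Toll-like receptor 4 senses, activates ERK, JNK and p38 kinases in macrophages. These kinases drive immediate early transcription of Fos, Fosb, Jun, Junb and Atf3, whose mRNAs are exported, after splicing where the gene has introns, and decay quickly.

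Libraries held 30088678 to 47961117 expected counts on annotated genes, so that 3 counts, taken here as the detection floor of a library, corresponded to 0.0626 to 0.0997 CPM, which is counts scaled to the library total. Expected counts are estimates of reads per gene that need not be whole, and TPM is the deposited abundance corrected for transcript length and library size. The 7SL RNA genes Rn7s1 and Rn7s2 took 57.1% to 63.3% of all TPM, with the largest share in replicate 2. This lowers the TPM of every other gene. The labelled cell type was checked by 8 macrophage markers, of which 8 reached a mean of 1 TPM, led by Lyz2 at 5104 TPM. The summed level of these markers was 5274 to 8611 TPM by library. Of 6 neutrophil markers 2 reached that level, led by S100a9 at 14.8 TPM, and the list summed to 19.1 to 35.0 TPM. Of the T, B, NK, dendritic, stromal, mast and erythroid cell markers 0 reached 1 TPM, no such list summed to more than 1.37 TPM in a library, and Gzma (NK) was listed at 0 in all 4.

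The promoters of the 4 members best known as immediate early genes are shown because Fos, Jun and Junb, compared as scaled counts further on, had the same lowest and highest library, which Fosb did not share in full. Each stretch lies just upstream of the RefSeq transcript start and is written 5′ to 3′ on the strand of the gene, with matches to the motifs searched in capitals. Sequences and coordinates are those of RefSeq on GRCm38.p6, at chr12:85473640-85473889 on the plus strand for Fos, chr7:19310052-19310295 on the minus strand for Fosb, chr4:95052223-95052472 on the minus strand for Jun, and chr8:84978749-84978998 on the minus strand for Junb.
Fos: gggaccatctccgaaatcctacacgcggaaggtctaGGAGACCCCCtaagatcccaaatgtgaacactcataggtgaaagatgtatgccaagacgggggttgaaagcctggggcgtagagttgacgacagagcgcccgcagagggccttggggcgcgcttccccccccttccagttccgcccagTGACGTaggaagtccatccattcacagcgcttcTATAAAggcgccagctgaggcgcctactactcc
Fosb: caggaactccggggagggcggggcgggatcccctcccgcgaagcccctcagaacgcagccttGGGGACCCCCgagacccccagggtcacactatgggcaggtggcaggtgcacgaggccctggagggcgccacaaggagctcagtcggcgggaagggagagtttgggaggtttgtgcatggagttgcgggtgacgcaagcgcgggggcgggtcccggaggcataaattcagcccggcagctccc
Jun: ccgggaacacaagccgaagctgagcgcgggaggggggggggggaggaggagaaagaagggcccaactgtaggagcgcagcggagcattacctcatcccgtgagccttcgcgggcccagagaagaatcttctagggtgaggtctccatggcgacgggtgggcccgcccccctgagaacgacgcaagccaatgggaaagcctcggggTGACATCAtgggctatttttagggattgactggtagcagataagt
Junb: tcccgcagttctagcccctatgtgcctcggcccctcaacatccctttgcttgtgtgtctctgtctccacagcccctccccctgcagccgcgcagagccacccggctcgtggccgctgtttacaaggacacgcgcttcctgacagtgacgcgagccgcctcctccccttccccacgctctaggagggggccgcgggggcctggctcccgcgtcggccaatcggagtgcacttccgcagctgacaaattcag
The motifs searched on both strands of 250 bases upstream were TGACGT and TGACNTCA (cAMP response elements, which may overlap each other), TGANTCA (AP-1), TATAAA, the CArG box of serum response factor and the NF-kB motif. In Fos, TGACGT stood from -66 to -61 and TATAAA from -33 to -28, counted from the RefSeq start, and an NF-kB motif match on the opposite strand from -214 to -205. Fosb held an NF-kB motif match on the opposite strand from -188 to -179. Jun held TGACATCA, a match to TGACNTCA but not to TGACGT, from -45 to -38, and the Junb stretch held no match. Among 32851 promoters of that length, TGACGT was present in 6.47%, TGACNTCA in 7.49%, TGANTCA in 6.75%, TATAAA in 12.4%, the CArG box in 1.47% and the NF-kB motif in 3.90%. RefSeq promoters were matched for 9 of the 10 members, all but Fosl1. Matches were not limited to the genes shown. Atf3 held TGACGT on the opposite strand from -8 to -3, and Batf held TGACGT from -98 to -93. The main annotated Atf3 transcript starts at -7, so all but the first base of that match lies within it. Fosl2 held NF-kB motif matches from -182 to -173 and, on the opposite strand, from -181 to -172. These Fosl2 matches overlap almost fully and are not separate sites. The main annotated Fosl2 transcript starts at -671, so they lie within it and not upstream of it. Jund and Batf3 held no match. Jund-201 starts 1210 bases downstream of the RefSeq start, so the bases just before Jund-201 were not searched. A match describes letters only, and an absent motif says only that it is not in this window.

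Fos mRNA made up nearly all of the Fos family in the cytosol. Fos (ENSMUSG00000021250.13, chr12:85473890-85477273, mm10, plus strand), the rapidly induced partner of Jun proteins, was at 158, 58.5, 216 and 211 TPM in replicates 1, 2, 3 and 4. Replicate 2 stood below the other 3. Its share of the summed Fos-family TPM was 93.9% ± 0.456 (SD, n = 4), with a range of 93.4% to 94.4%. Within the small remainder, the Fosb share ranged from 0.431% to 3.68% and the Fosl2 share from 2.12% to 5.19%.

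The other Fos-family mRNAs were scarce. Fosb (ENSMUSG00000003545.3, chr7:19302696-19310051, minus strand), which encodes a close relative of Fos, was at 0.720, 1.08, 8.43 and 7.34 TPM, from 113, 354, 2184 and 1656 expected counts. Replicates 3 and 4 were high and replicates 1 and 2 low, with no value between 1.08 and 7.34 TPM, so the mean of 4.39 ± 4.06 TPM describes no library. Fosl2 (ENSMUSG00000029135.10, chr5:32135801-32157842, plus strand), which encodes Fra-2, was at 8.67, 3.03, 4.86 and 7.20 TPM, highest in replicate 1 and lowest in replicate 2. Fosl1 (ENSMUSG00000024912.6, chr19:5447547-5455946, plus strand), which encodes Fra-1, had 1.02, 0, 4.04 and 0 expected counts. Only the replicate 3 value exceeded the 3-count floor, which for that library is 0.0745 CPM, and Fosl1 shares 2767 bases with Ccdc85b on the opposite strand. Fosl1 mRNA was therefore at or near the detection limit at this depth.

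All 3 Jun-family mRNAs were present, and Junb was the most abundant of them in each library. Junb (ENSMUSG00000052837.6, chr8:84974484-84978718, minus strand), which binds DNA with Fos proteins and is a weaker activator than Jun on many targets, was at 94.7, 58.4, 116 and 168 TPM. Jun (ENSMUSG00000052684.4, chr4:95049034-95052222, minus strand), the main substrate of JNK, was at 69.3, 39.3, 61.0 and 85.4 TPM. Replicate 2 was the lowest and replicate 4 the highest for both genes on this scale. In a second set of deposited transcript tables, keyed by target, replicate 2 was also the lowest but replicate 1 the highest, at 50.6 TPM for Junb and 36.2 TPM for Jun.

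Jund (ENSMUSG00000071076.6, chr8:70698949-70700616, plus strand), the Jun protein most cells make constantly, was at 20.9, 27.9, 34.4 and 32.1 TPM. Replicate 1 was its lowest library on this scale but its highest in the target-keyed tables, at 13.9, 12.7, 12.2 and 11.7 TPM. The 919 bases of the antisense gene Gm11175 lie within Jund, and without a stated strand setting their reads cannot be told apart. Gm11175 itself had 51.3, 219, 215 and 194 expected counts, against 1440, 3796, 3819 and 3087 for Jund. Junb made up 52.9% ± 5.27, Jun 31.9% ± 3.87 and Jund 15.2% ± 5.21 of the Jun-family TPM (SD, n = 4).

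Among the partners outside the Fos family, Atf3 was abundant and the Batf genes were not. Atf3 (ENSMUSG00000026628.13, chr1:191170296-191218039, minus strand), a stress-induced factor that restrains Toll-like receptor responses in mouse macrophages, was at 51.5, 77.4, 87.8 and 93.2 TPM, with replicate 1 below the other 3. The target-keyed tables put it between 24.9 TPM in replicate 3 and 27.6 TPM in replicate 2, with replicate 1 at 27.2 TPM and not the lowest. Batf (ENSMUSG00000034266.6, chr12:85686669-85709087, plus strand), which pairs with Jun proteins and binds with IRF factors, was at 4.36, 5.59, 4.44 and 8.10 TPM. Batf3 (ENSMUSG00000026630.9, chr1:191097847-191108945, plus strand), needed for a class of dendritic cells, was at 0.980, 0.900, 1.82 and 2.61 TPM, from 27 to 91 expected counts. Batf3 was lower in replicates 1 and 2 than in replicates 3 and 4, and its mean of 1.58 ± 0.804 TPM stood just above the detection level. In RNA from many cells, fewer cells that make an mRNA and less of it per cell cannot be told apart.

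**Figure D1:**
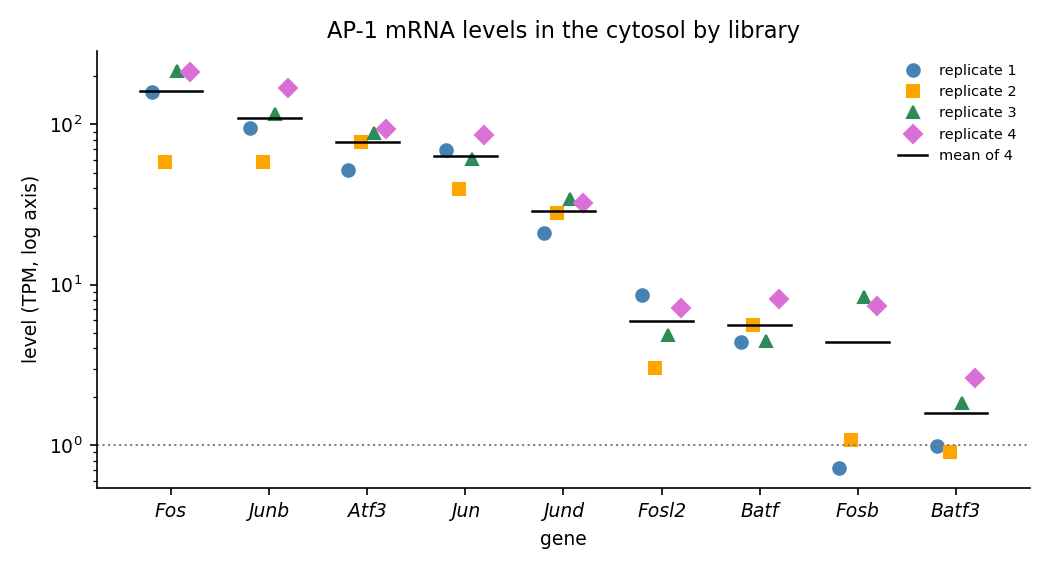
Level in TPM (log axis) of the 9 AP-1 genes with a value above 0 in each library. Symbols are the 4 libraries, horizontal bars the mean of 4, and the dotted line the detection level of 1 TPM; Fosl1, at most 0.17 TPM, is not drawn. Fos, Junb, Atf3, Jun and Jund lie above 20 TPM in every library and the other 4 genes below 9 TPM.

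Counted as detected at a mean of at least 1 TPM, mRNAs of 9 of the 10 genes were in the cytosol, all but Fosl1. The 10 genes summed to 409, 272, 535 and 615 TPM in replicates 1 to 4. Replicate 2 held the least. Of that sum Fos took 38.6%, 21.5%, 40.3% and 34.3%, Junb 23.2%, 21.5%, 21.8% and 27.3%, and Atf3 12.6%, 28.4%, 16.4% and 15.2%. In replicate 2 Atf3 was thus the largest single AP-1 mRNA, while Fos was the largest in the other 3.

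Summed Fos-family TPM was 167, 62.6, 229 and 225, against 185, 126, 212 and 285 for the summed Jun family. The ratio of Fos family to Jun family was 0.904, 0.498, 1.08 and 0.789, above 1 in replicate 3 only. Its mean log2 was -0.34 ± 0.48 (SD, n = 4), and flipping signs in an exact permutation test (two-sided) gave p = 0.25, where the smallest p that 4 libraries allow is 0.125. An imbalance between Fos-family and Jun-family mRNA was not resolved at this number of libraries. Fos alone stood above Jun alone in 4 of 4 libraries, by a mean log2 ratio of 1.22 ± 0.51, with the smallest exact p of 0.125.

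In the order of mean TPM, which was Fos, Junb, Atf3, Jun, Jund, Fosl2, Batf, Fosb, Batf3 and Fosl1, 4 of the 9 neighbouring pairs kept their order in 4 of 4 libraries. These were Fos over Junb by 0.49 ± 0.40, Jun over Jund by 1.12 ± 0.56 and Jund over Fosl2 by 2.36 ± 0.85 as mean log2 differences of TPM, and Batf3 over Fosl1. For the first 3 the exact sign-flip permutation p was 0.125 each and 0.333 after Benjamini-Hochberg adjustment over the 8 pairs that could be tested. Junb over Atf3, Atf3 over Jun, Batf over Fosb and Fosb over Batf3 held in 3 of 4 libraries, and Fosl2 and Batf, at a mean log2 difference of 0.02 ± 0.78, held in 2. The order within those 5 pairs was not resolved. With a smallest p of 0.125 at 4 libraries, this test could not separate any of the pairs. The target-keyed tables gave the same number of libraries in order for each of the 9 pairs.

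Isoforms were read from IsoPct, the deposited percent of a gene's TPM in each transcript. For 9 of the 10 genes the same transcript, in each case the one numbered 201 and protein-coding, had the highest IsoPct in 4 of 4 libraries. The target-keyed tables named the same 9. Jun and Jund each have a single annotated transcript, of 1 exon, and Junb-201, also of 1 exon, took 99.3% to 100% of Junb. Atf3-201 took 99.5% to 100% of Atf3 and Batf-201 took 97.7% to 100% of Batf. Fosl1 had no leading transcript, since 2 libraries held 0 counts.

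Fos, Fosb, Fosl2 and Batf3 divided their RNA among several transcripts. Fos-201, the full-length mRNA of 380 codons, took 91.9%, 82.9%, 72.0% and 87.1% of Fos in replicates 1 to 4. Fos-202, a short processed transcript of 631 bases, took 6.74%, 14.7%, 23.0% and 6.12%, and Fos-203, of 795 bases with 244 of them intronic in Fos-201, took 1.25%, 2.26%, 4.99% and 6.77%. Replicate 3 held the smallest Fos-201 share. The target-keyed tables put Fos-201 lower, at 68.6%, 61.3%, 56.4% and 70.3%, so the size of the minor share depends on the quantification.

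Fosb was the least uniform. Fosb-201, which encodes full-length FosB of 338 codons, took 67.1%, 61.0%, 47.8% and 52.5%, under 50% in replicate 3 only. Fosb-204, an unspliced transcript of 3629 bases that keeps 2 of the 3 introns of Fosb-201, took 12.0%, 23.3%, 38.7% and 38.4%. Its share was higher in replicates 3 and 4 than in replicates 1 and 2.

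Fosb-206 and Fosb-207 lack a stretch of 140 coding bases, and Fosb-206, of 237 codons, encodes the truncated ΔFosB, which lacks the carboxy-terminal activation domain of FosB. That stretch is shown because it is what separates FosB from ΔFosB. It lies at chr7:19304992-19305161 on the minus strand of mm10 in the M21 transcript Fosb-201, written 5′ to 3′ with the 140 spliced bases in capitals and 15 bases on either side.
Fosb-201: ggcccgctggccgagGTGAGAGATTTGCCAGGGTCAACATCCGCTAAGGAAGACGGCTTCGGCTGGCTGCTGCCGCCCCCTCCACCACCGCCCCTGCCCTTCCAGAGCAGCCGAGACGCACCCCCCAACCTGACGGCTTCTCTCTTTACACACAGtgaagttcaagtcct
Together Fosb-206 and Fosb-207 held 18.3%, 15.7%, 13.4% and 9.12% of Fosb TPM, against 15.2%, 18.5%, 10.8% and 7.76% in the target-keyed tables. By counts rather than TPM, the target-keyed share was 4.13%, 8.98%, 4.82% and 3.32%. Fosb-206 alone had 2.52, 0, 18.1 and 10.2 expected counts, and in replicate 1 the target-keyed share rests on 5.08 estimated counts of it, so the size of the share is not resolved. RNA with and without the stretch was listed in all 4 libraries.

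Fosl2-201 took 93.6% and 94.3% of Fosl2 in replicates 1 and 2 and 64.6% and 60.9% in replicates 3 and 4. Its counterpart Fosl2-202, a single exon of 3472 bases with 2839 of them intronic in Fosl2-201, took 4.02%, 5.68%, 27.5% and 30.1%. The libraries therefore fell into a low and a high pair, with no share between 5.68% and 27.5%. Batf3-201 took 77.2%, 68.8%, 52.4% and 72.1%, and the noncoding Batf3-205 took 7.10%, 25.9%, 36.2% and 21.5%, each from at most 74.0 expected counts.

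Fosb-204, Fosl2-202, Fosl2-203, Batf-202, Batf3-202 and Fosl1-202 are annotated as retained_intron. Such transcripts together held 6.45%, 5.61%, 35.5% and 39.1% of Fosl2 TPM. The target-keyed tables gave 13.5%, 21.5%, 39.1% and 39.4% for Fosb and 12.9%, 14.2%, 44.7% and 48.7% for Fosl2. Retained-intron shares were higher in replicates 3 and 4 for both Fosb and Fosl2 in both sets of tables. Batf3 did not follow, at 8.08%, 0%, 8.24% and 3.46%, and Batf stayed at or below 2.22% in the gene-level quantification, both from few counts. The nuclear RNA Malat1 was at 306, 242, 984 and 941 TPM in the same libraries, and Neat1, the RNA of nuclear paraspeckles, at 35.1, 25.0, 115 and 79.4 TPM. These too were higher in replicates 3 and 4, and their part in the isoform shares was not tested.

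**Figure D2:**
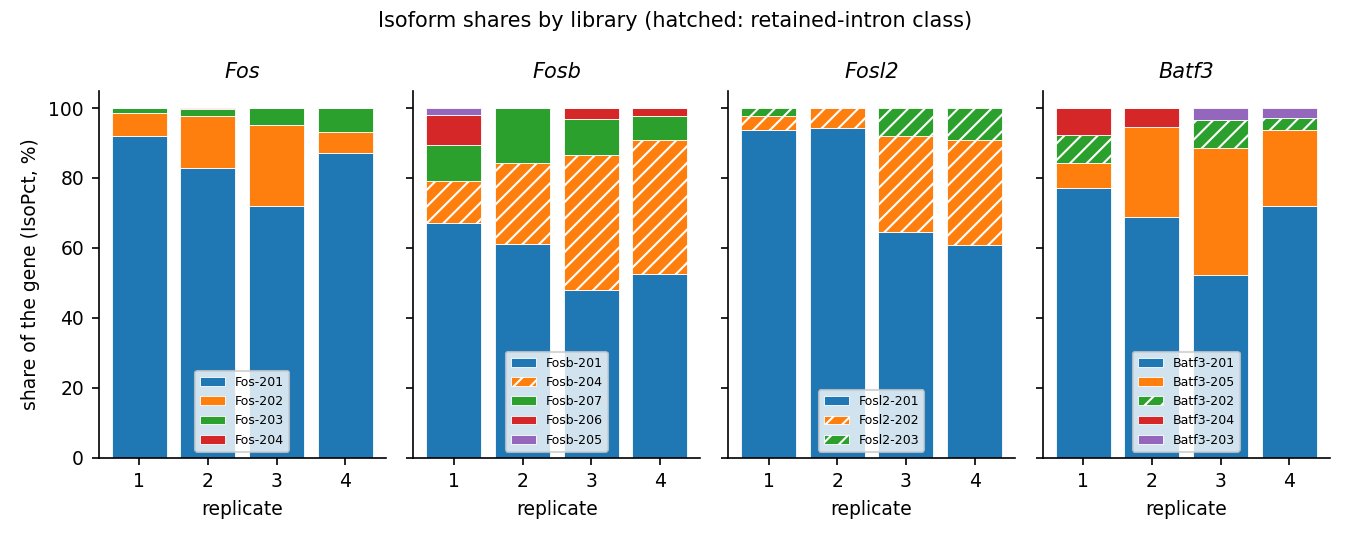
Share of each gene's TPM (IsoPct, %) by transcript in the 4 libraries for Fos, Fosb, Fosl2 and Batf3; each bar is 1 library and hatching marks the retained-intron class. The hatched share of Fosl2 and Fosb is larger in replicates 3 and 4 than in replicates 1 and 2, and the number 201 transcript is the largest in every bar.

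AU-rich elements, which recruit decay factors such as tristetraprolin to short-lived mRNAs, were searched in the 3′ untranslated regions (3′ UTRs) of the number 201 transcripts. The overlapping nonamer TTATTTATT was present once in Fos and once in Fosl2 and in none of the other 8 genes. Both sites are shown because no other member held one, with the nonamer in capitals, at chr12:85477104-85477130 for Fos and chr5:32156872-32156898 for Fosl2, both on the plus strand of mm10 in M21 transcripts.
Fos: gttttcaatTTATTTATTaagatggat
Fosl2: tttattttaTTATTTATTttaaatgtt
The nonamer was present in 3.97% of 2768 annotated 3′ UTRs of about the length of that of Fos, and in 19.5% of 1412 of about the length of that of Fosl2. The core pentamer ATTTA, which the nonamer contains, occurred 4 times in Fos, 8 in Fosl2, 4 in Jun, 3 in Atf3, 2 in Junb, once each in Fosb, Fosl1 and Jund, and 0 times in Batf and Batf3. The 3′ UTRs ranged from 310 bases in Batf3 to 4653 bases in Fosl2. Stability was not measured.

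The spread between libraries was large for this family. For comparisons between libraries, expected counts were scaled by TMM, a method that sets libraries to a common level from most genes, and given as log2 CPM. All 9 testable genes, those with a mean of at least 10 counts, varied beyond counting error by the deviance of a Poisson fit with Benjamini-Hochberg adjustment over all genes tested, where 82.8% of all 14041 genes did so. The adjusted p was 1.57e-05 for Batf3, 4.09e-10 for Batf and 7.77e-128 for Fosl2. With so many genes past this test, passing it does not set AP-1 genes apart.

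The median SD of log2 CPM was 0.51 over the 9 AP-1 genes tested and 0.25 over all genes tested, and 9 of 9 stood above the median of all genes. Among genes of like level, in bins of 1 unit of log2 CPM, 6 of the 9 stood above the 90th percentile of SD, namely Fos, Fosb, Fosl2, Junb, Jund and Atf3. Fosb had the largest spread of the 9, with log2 CPM of 1.84, 2.95, 5.86 and 5.11 and an SD of 1.87, larger than in 99.2% of genes tested. Fos, with 8.70, 7.61, 9.36 and 8.96 and an SD of 0.75, exceeded 84.9%. Jun had the smallest SD of the 9, at 0.28, with 8.27, 7.89, 8.53 and 8.44.

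**Figure D3:**
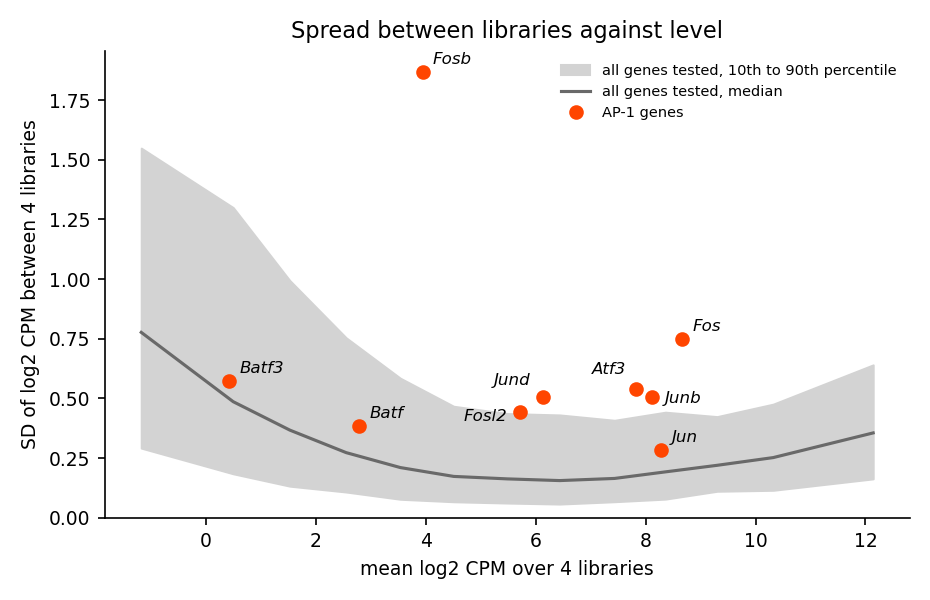
SD of log2 CPM between the 4 libraries against mean log2 CPM. Points are the 9 AP-1 genes tested, the line is the median and the band the 10th to 90th percentile of all 14041 genes tested, in bins of level. Fosb, at an SD of 1.87, stands far above the band, and Jun, Batf and Batf3 lie within it.

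The libraries that were high or low differed among the genes. Fos, Jun and Junb were lowest in replicate 2 and highest in replicate 3 on this scale. Fosb, Jund and Atf3 were lowest in replicate 1 and highest in replicate 3. Fosl2 alone was highest in replicate 1, and it was lowest in replicate 2. Batf was lowest in replicate 1 and highest in replicate 2, and Batf3 lowest in replicate 1 and highest in replicate 4.

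**Figure D4:**
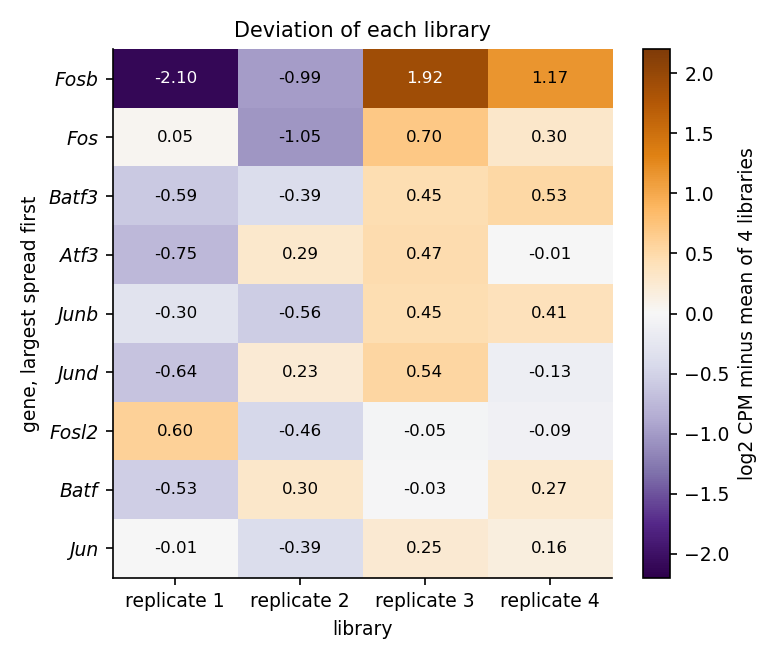
Deviation of each library from the mean of 4 libraries, in log2 CPM, for the 9 AP-1 genes tested, ordered by spread. Orange is above and purple below the mean; Fosb runs from -2.10 in replicate 1 to 1.92 in replicate 3, while Jun stays between -0.39 and 0.25.

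Each replicate was set against the other 3 with edgeR's quasi-likelihood test, which assumes that the lone library varies like the others. In replicate 1, 2 of the 9 AP-1 genes passed a Benjamini-Hochberg adjusted p of 0.05, where 22.0% of all genes did (14.5% higher and 7.58% lower), so the count is near the background. Of the 2 AP-1 genes, 1 was higher and 1 was lower. Fosl2 was at 79.1 CPM in replicate 1 and at 45.7 ± 6.86 CPM in the other 3, a log2 fold of 0.79 (SE 0.17, adjusted p = 0.0326, edgeR). Atf3 was at 135 CPM in replicate 1 and at 274 ± 45.0 CPM in the other 3, a log2 fold of -1.02 (SE 0.21, adjusted p = 0.0285, edgeR). Replicate 1 lay outside the range of the other 3 for each.

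Of the other 7, Fosb, Jund, Batf and Batf3 were also lower in replicate 1 than in any other library but did not pass. How many of all genes were lowest in replicate 1 was not counted, so this does not set AP-1 genes apart. Fosb was at 3.54 CPM in replicate 1 and at 33.4 ± 25.3 CPM in the other 3, a log2 fold of -3.24 (SE 1.28, adjusted p = 0.14, edgeR). The Fosb fold was -3.70 without replicate 2 and -2.58 without replicate 3. The Junb fold, at -0.47 with all libraries, was -0.72 without replicate 2 and -0.31 without replicate 3. Jund, at a log2 fold of -0.88 with all libraries, was at -1.10 without replicate 4 and -0.70 without replicate 3. DESeq2 gave -0.90 for Jund with all libraries. Batf, at -0.73 with all libraries, was at -0.83 without replicate 3, -0.66 without replicate 2 and -0.61 in the target-keyed tables. The Fosl2 fold was 1.01 (adjusted p = 0.00436, edgeR) once retained-intron transcripts were left out, an alternative added after the isoform values were seen. In replicate 1 the platelet factor gene Pf4 was at 938 TPM, against 157 to 199 TPM in the other 3, while the other megakaryocyte markers, Itga2b and Gp9, did not reach 1 TPM. The neutrophil list summed to 19.1 TPM, against 23.8 to 35.0 TPM in the other 3. The part of these in the replicate 1 differences was not tested.

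In replicates 2, 3 and 4 no AP-1 gene passed, and the background was 0% of 14041 genes by edgeR in each. At an unadjusted p of 0.05, edgeR gave 277, 135 and 104 genes in these 3 comparisons, and DESeq2 called 8, 3 and 17 genes, none of them an AP-1 gene. Fos was at 195 CPM in replicate 2 and at 523 ± 121 CPM in the other 3, a log2 fold of -1.42 (SE 0.35, unadjusted p = 0.0114, adjusted p = 1.00, edgeR). It was the only AP-1 gene under 0.05 without adjustment there. Fosb was at 7.67 CPM in replicate 2 and at 32.1 ± 27.4 CPM in the other 3, a log2 fold of -2.06. That fold was -2.58 without replicate 1 and -1.31 without replicate 3. The median log2 fold of the 9 genes was -0.73, -0.63, 0.54 and 0.23 in replicates 1, 2, 3 and 4, against medians of all genes tested between -0.06 and -0.005, and these comparisons share libraries.

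The genes whose profile over the 4 libraries was nearest to that of Fos, by Euclidean distance of centred log2 CPM among 9836 genes, were Mir22hg, Tmem181b-ps, Zcchc7, F630028O10Rik and Gm14296, at distances of 0.49 to 0.54. Mir22hg, the host transcript of miR-22, was at 7.04 TPM. In nearness to Fos, Junb ranked 16, Jun 46 and Fosl2 546, while Jund ranked 8280, Atf3 8847, Batf 8988 and Fosb 9773. Nearest to Jun were Slc25a37, Cdc37l1, Gm10521, Srek1 and 5830432E09Rik, at 0.07 to 0.09, with Junb at rank 886 and Fos at 7803. The distance was not scaled for spread, so it grows with the size of the deviations as well as with their pattern. A far rank therefore need not mean a different pattern, as Fos and Jun had the same lowest and highest library. These are orders of likeness over 4 libraries and carry no test.

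The mRNAs of other bZIP factors that can pair with AP-1 proteins were also in the cytosol. Of 24 listed, 22 reached a mean of 1 TPM, led by Maf at 109 TPM, Nfe2l2 (Nrf2, of the oxidative stress response) at 81.0 TPM and Cebpa at 46.3 TPM. In replicate 1, 3 of 24 were higher, namely Mafg (log2 fold 0.80), Crem (0.65) and Jdp2 (0.73), a repressor that dimerises with Jun, and 3 were lower, namely Ddit3 (-0.90), Bach1 (-0.58) and Atf5 (-0.60). The background in replicate 1 was 14.5% of genes higher and 7.58% lower, and the list median was -0.14, against -0.005 for all genes.

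Of 18 kinases upstream of AP-1, 17 were detected, led by the ERK gene Mapk3 at 46.9 TPM and Mapkapk2, a p38 target, at 36.5 TPM. In replicate 1, 4 of 18 were higher and 0 lower, among them Rps6ka3 (log2 fold 0.48), Map2k1 (0.35) and Map2k3 (0.64), where 14.5% of all genes were higher and 7.58% lower, and the list median was 0.22, against -0.005 for all genes. All 8 matched upstream transcription factors were detected, with Mef2c at 30.1 TPM, Mef2a at 27.3 TPM and Mef2d at 15.8 TPM the highest, and serum response factor (Srf) at 6.74 TPM. Of these 8, 2 were higher in replicate 1, Mef2a (1.03) and Elk3 (1.19), where 14.5% of all genes were higher, and the list median was 0.15.

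All 10 genes of RNA decay and AP-1 turnover were detected, led by Zfp36, which encodes tristetraprolin, at 151 TPM, Zfp36l1 at 60.0 TPM and Zfp36l2 at 58.8 TPM. Zfp36 was at 127, 80.8, 160 and 236 TPM, with replicate 2 the lowest library, as for Fos. Replicate 2 was also the lowest by TPM for Zfp36l1, Zfp36l2 and Hnrnpd, but not for Elavl1 and Cops5. The 7SL share of TPM, at 63.3%, was largest in replicate 2, which lowers the TPM of other genes most there. In replicate 1, 3 of these 10 were higher, namely Hnrnpd (0.76), Elavl1 (0.45) and Cops5 (0.46), where 14.5% of all genes were higher, and the list median was 0.001, against -0.005 for all genes.

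Of 20 genes known as AP-1 targets, 17 were detected, led by Spp1 (osteopontin) at 999.9 TPM, Vim at 550 TPM and Hmox1 at 131 TPM. In replicate 1, 8 of 20 were higher and 1 lower, where 14.5% of all genes were higher and 7.58% lower, and the list median was 0.47, against -0.005 for all genes. The 8 were Ccnd1 (log2 fold 3.36), Plau (2.62), Ccl2 (2.58), Mmp12 (1.31), Mmp13 (1.30), Cd44 (0.87), Vim (0.82) and Plaur (0.48), and the gene that was lower was Csf1 (-1.30). Ccnd1, which encodes cyclin D1, was at 145 TPM in replicate 1, against 11.3, 12.9 and 11.1 TPM in the other 3. Plau, the urokinase gene, was at 161 TPM in replicate 1, against 20.5, 17.8 and 28.6 TPM. Because this list was chosen with earlier results of these data known, no conclusion about AP-1 activity was drawn from it. In replicates 2, 3 and 4, 0 genes of these 5 lists passed by edgeR, as for all genes.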

How the data were processed

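Each library has 3 tables from the authors: genes, transcripts, and transcripts again under target identifiers (called target-keyed). Expected counts, or estimated counts in the target-keyed tables, TPM and the percent of a gene in each isoform (IsoPct) are the deposited values, per the file headers. The deposited text names mm10 and GENCODE M21. The sources used here do not name the aligner, the quantifiers or their versions; the column layouts are those RSEM and kallisto write. Strand use in counting is not named either, so antisense and overlapping genes cannot be told apart.

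Rows without a gene name, 26345 in number with 0.0267% to 0.407% of the counts, were left out. Expected counts were rounded, scaled by TMM and tested where the mean was at least 10, with edgeR 4.0.16 in R 4.3.3; DESeq2 1.42.0 was an alternative. Log2 CPM used a prior count of 2. Standard errors came from the fold and the F statistic. A gene was called when its p, adjusted by Benjamini-Hochberg over all genes tested, was under 0.05. The procedures were tested on simulated counts with the same spread for every gene. That spread was fixed beforehand and not estimated from these data, so recovery may be lower for genes with a larger spread, such as Fosb. With each replicate against the other 3, 12% to 15% of genes changed by a log2 fold of 1 were recovered. At a log2 fold of 2, 79% to 92% were recovered. A gene that did not pass may therefore still differ between libraries. Other steps used Python 3.11.15 with pandas 2.3.3 and numpy 2.4.6, and plots matplotlib 3.10.9. Floors reflect counting error alone, because without molecular identifiers several reads may stem from 1 molecule.

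Named genes are all 10 AP-1 genes, the 5 genes nearest in profile to Fos and to Jun (mean of at least 1 TPM and 100 counts), the 3 most abundant genes of each list with those called in replicate 1, and the most abundant marker of the macrophage and neutrophil lists. Malat1, Neat1, Pf4, Itga2b, Gp9, Srf, Gzma and genes overlapping AP-1 genes were added after their values were seen. The AP-1 genes and the lists were chosen with earlier results of these data known. Of 9 upstream factors listed, Mkl1 was not matched. Some genes that the rule names are not reported here. Like-length 3′ UTRs are those between 0.8 and 1.25 times the length, 1 per gene.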

Additional observations from a re-analysis of the deposited data

Results flagged for a closer look

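A library was picked out where its gap to the nearest of the other 3 took up nearly the whole range of the 4. Of 67 sets of 4 values examined, 8 were picked out, and chance alone gives about 1 in 20. Of these, 5 concern Fosl1, which had 1.02, 0, 4.04 and 0 expected counts. Replicate 3 was high for Fosl1 at 0.17 TPM, at 0.0590 TPM in the target-keyed tables and at 0.0741% of Fos-family TPM. Fosl1-201 had an IsoPct of 100 in replicate 1, and Fosl1-203 of 88.7 in replicate 3. Atf3-201 was low in replicate 1 at 99.5%, where Atf3-202 took 0.51%, from 3.61 expected counts. Fosb-205 took 2.02% of Fosb in replicate 1, from 2.39 expected counts. Each of these 8 values rests on fewer than 6 counts of the minor transcript or gene.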

How the results depend on the processing

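No paired analysis was possible because the libraries form 1 group. The number of AP-1 genes detected was 8 to 9, the number varying beyond counting 9 to 10 and the number with a leading isoform 8 to 9 over the alternatives run. The log2 ratio of Fos family to Jun family stayed negative except as Fos alone over Jun alone, chosen after the values were seen, at 1.22. In replicate 1 the number of AP-1 genes called changed with the filter on low counts and with the replicate left out. The number over all genes changed too. In replicate 2, 0 to 1 AP-1 genes and 0 to 82 genes were called when a replicate was left out, and DESeq2 called 8 genes. DESeq2 called 3 genes in replicate 3 and 17 in replicate 4, where no filter gave 1 and leaving out a replicate 0 to 1. The causes were not tested.

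Mean TPM depended on the quantification: the target-keyed tables moved it by over 1 SD for 8 of 10 genes (Fos to 65.3 TPM) and rescaling without 7SL for 9 of 10 (Fos to 394 TPM). In the target-keyed tables the highest library of Fos, Jun and Junb by TPM was replicate 1, at 102, 36.2 and 50.6 TPM, while all 3 kept replicate 2 as the lowest, at 24.4, 13.4 and 19.8 TPM. Genes with few counts, Fosl1 and Batf3, and single minor transcripts are limited by depth.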
